A study of Mus musculus with 13 samples.

Results

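The enzymes and the chaperone that hydroxylate, fold and crosslink collagen were followed in C2C12 cells after depletion of YBX3. The 10 genes were taken by symbol, P4ha1, P4ha2, P4ha3, Plod1, Plod2, Plod3, Serpinh1, Lox, Loxl1 and Loxl2, and each matched 1 of the 55642 genes in the deposited table. All 10 had enough counts to be tested, among 16848 genes tested in all. C2C12 is an established mouse myoblast line that forms myotubes when its serum is changed. Cells transfected with nontargeting siRNA (control KD) or with siRNA to YBX3 (YBX3 KD) were all collected 48 h later, either still proliferating (0 day) or after 24 h in medium with 10% horse serum, which induces differentiation (1 day). Of 13 RNAseq libraries, 8 came from 0 day, with replicates A to D of each siRNA. At 1 day there were replicates C and D of control KD and replicates B, C and D of YBX3 KD. The question asked was whether the modifying enzymes follow the collagens after YBX3 depletion.

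Collagen chains are modified in the endoplasmic reticulum before they fold into a triple helix. Prolyl hydroxylation stabilizes the helix, lysyl hydroxylation prepares the sites of later crosslinks, and a dedicated chaperone holds the folded helix until it leaves the compartment. Outside the cell, lysyl oxidases turn lysines and hydroxylysines into aldehydes from which crosslinks form, and myoblasts as well as fibroblasts make such a matrix.

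CPM is used for abundance, which is a gene's count over the library total after TMM scaling, times 1e+06. The control KD libraries held 33451547 to 62261197 counts at 0 day, and 52145571 (C) and 37511347 (D) at 1 day. The YBX3 KD libraries held 41868570 to 71811371 counts at 0 day and 36819569 to 56778578 at 1 day. No enzyme had fewer than 353 counts in a library, the lowest value of Loxl1. Ybx3 (ENSMUSG00000030189, chromosome 6 of GRCm39, 131341810 to 131365448, minus strand), the target of the siRNAs, lay between 265 and 347 CPM with a median of 314 CPM in the 6 control KD libraries. In the 7 YBX3 KD libraries it lay between 28.7 and 71.5 CPM with a median of 42.9 CPM. The groups were fully separate, as the labels have it, and Ybx3 fell by 2.81 on the log2 scale (adjusted p = 5.26e-06, edgeR).

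Levels of different genes were compared per kb of merged exons, as means over all 13 libraries. Lox, at 237 CPM per kb, and Serpinh1, at 163 CPM per kb, stood above the others. Their order depends on the length used, and is not read as a result. P4ha1 (43.5 CPM per kb) and Plod3 (42.1 CPM per kb) came next and overlapped over their libraries, followed by Plod2 at 27.4 CPM per kb. Loxl2 (17.0 CPM per kb), Plod1 (14.6 CPM per kb) and P4ha2 (10.7 CPM per kb) came after these. The libraries of Loxl2 overlapped those of Plod2, Plod1 and P4ha2, and those of Plod1 overlapped those of P4ha2. P4ha3, at 5.79 CPM per kb, and Loxl1, at 2.89 CPM per kb, were the lowest and did not overlap each other. With the length of the canonical transcript (the authors mapped to a canonical list), an alternative chosen after seeing the data, Serpinh1 (406 CPM per kb) stood above Lox (245 CPM per kb) and P4ha2 above Plod1 and Loxl2.

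**Figure D1:**
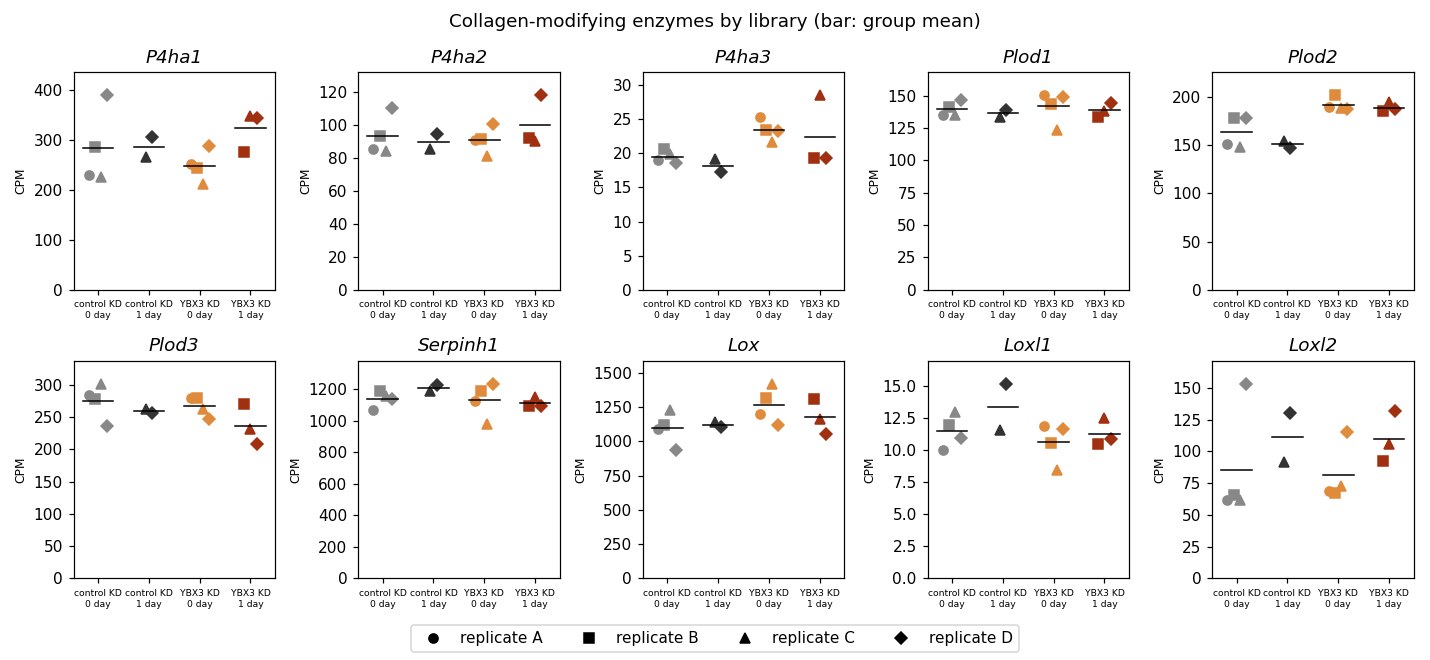
Abundance of the 10 genes in CPM (vertical axes, each from 0) in every library, by group, with the marker shape giving the replicate letter and a bar at the group mean. The 7 YBX3 KD libraries of Plod2 lie above the 6 control KD libraries, whereas for the other genes control KD and YBX3 KD overlap over both days.

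Prolyl hydroxylation is carried out by tetramers whose catalytic alpha subunits are encoded by P4ha1, P4ha2 and P4ha3. P4ha3 (ENSMUSG00000051048, chromosome 7 of GRCm39, 99934686 to 99968907, plus strand) encodes the least abundant of these subunits here. At 0 day P4ha3 was at 19.0, 20.6, 19.9 and 18.6 CPM in control KD replicates A to D and at 25.4, 23.5, 21.6 and 23.3 CPM in YBX3 KD replicates A to D. At 1 day P4ha3 was at 19.1 and 17.3 CPM in control KD (C and D) and at 19.4, 28.5 and 19.3 CPM in YBX3 KD (B, C and D). Each YBX3 KD library exceeded the control KD libraries of its own day, but over both days 2 of the 7 lay within the control KD range. Over both days the log2 fold change of P4ha3 was 0.28 with a standard error (SE) of 0.09, and it missed the threshold of 0.05 on the adjusted p (0.153, quasi-likelihood test of edgeR, adjusted after Benjamini and Hochberg). P4ha3 passed with limma-voom (adjusted p = 0.0153) and with DESeq2 and a block for each letter (adjusted p = 0.0326), fits in which 18.3% and 19% of genes passed, within a range of 0.0153 to 0.358 over 29 alternatives. Between libraries of the same letter and day, all 6 pairs had more P4ha3 after YBX3 depletion, by 0.12 to 0.58 on the log2 scale. These pairs came from 4 letters, as C and D were paired at both days. Of all tested genes 9.35% were higher in all 6. With the letter as a block in edgeR the adjusted p of P4ha3 was 0.0720.

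P4ha1 (ENSMUSG00000019916, chromosome 10, 59159092 to 59209126, plus strand), the main alpha subunit in most cells, ranged from 226 to 389 CPM in control KD (median 275) and from 210.5 to 348 CPM in YBX3 KD (median 276). Its highest library was control KD replicate D at 0 day. The log2 fold change was -0.05 (SE 0.14, adjusted p = 0.891), and it turned to 0.073 without that library. P4ha2 (ENSMUSG00000018906, chromosome 11, 53981553 to 54022494, plus strand), the second isoform, ranged from 84.0 to 110.04 CPM in control KD and from 81.3 to 118 CPM in YBX3 KD. These ranges overlapped almost fully. The log2 fold change of P4ha2 was 0.04 (SE 0.09), with an adjusted p of 0.886. Without control KD replicate C at 1 day or YBX3 KD replicate D at 1 day it was just below 0, at -0.0091 and -0.015.

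Plod2 (ENSMUSG00000032374, chromosome 9, 92424119 to 92490494, plus strand) encodes the lysyl hydroxylase that acts on the telopeptides, the ends of the chains where crosslinks form. At 0 day Plod2 was at 152, 178, 148 and 178 CPM in control KD replicates A to D and at 189.8, 202, 189 and 188 CPM in YBX3 KD replicates A to D. At 1 day it was at 155 and 147 CPM in control KD (C and D) and at 185, 195 and 187 CPM in YBX3 KD (B, C and D). Every YBX3 KD library was above every control KD library, and the YBX3 KD libraries were the more closely grouped, with an SD of 5.76 CPM (n = 7) against 14.7 CPM (n = 6). Plod2 rose by a log2 fold change of 0.27 (95% interval 0.14 to 0.39), to 120.2% of control, with an adjusted p of 0.0375 in edgeR. It too was higher in 6 of 6 such pairs. In bulk RNA, more RNA per cell and more cells of a kind that makes it cannot be told apart.

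**Figure D2:**
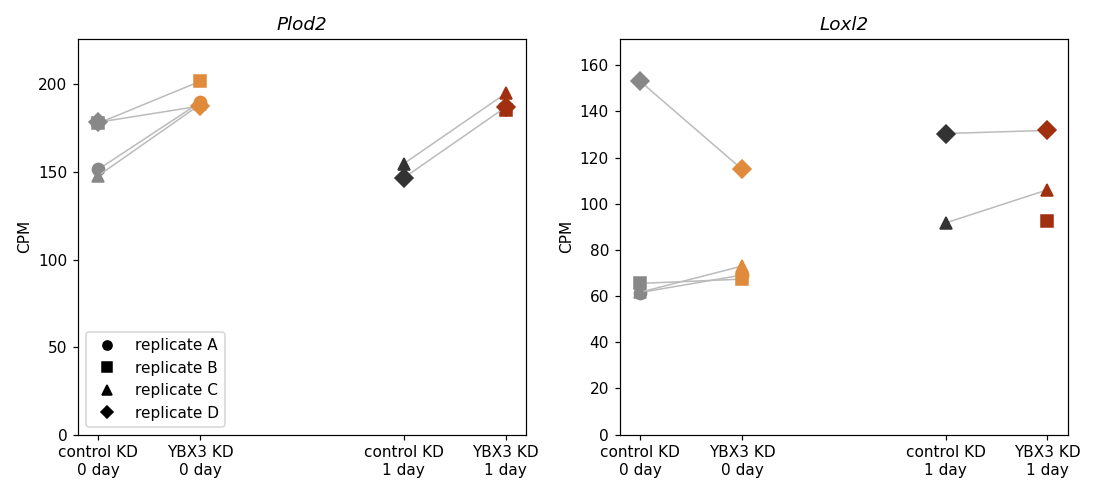
Plod2 and Loxl2 in CPM (vertical axes from 0) in each library, with lines joining control KD and YBX3 KD libraries of the same replicate letter and day. All 6 lines of Plod2 go up, while in Loxl2 the replicate D libraries lie above the others of their group.

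The size of the difference in Plod2 varied little, whereas its side of the threshold depended on the fit. Over 29 alternatives the log2 fold change stayed between 0.24 and 0.29, with adjusted p from 4.77e-04 (DESeq2) to 0.128 (no filter on low counts). Plod2 passed in 13 of the 23 alternatives first listed. It also passed in 5 of 6 chosen after seeing the data, most of them close to the fit as reported. Of the 13 fits that each left out 1 library, 4 passed. Plod2 did not pass without control KD replicate A (adjusted p = 0.0845) or C (0.0942) at 0 day, or without control KD replicate C (0.0995) or D (0.108) at 1 day. It did not pass without YBX3 KD replicate A (0.0726), B (0.0830) or C (0.0709) at 0 day, or without YBX3 KD replicate B (0.0539) or C (0.0637) at 1 day. The exception among the 6, a fit that averaged 4 group coefficients over the days, gave an adjusted p of 0.0560. In the fit with a block for each replicate letter Plod2 passed, at an adjusted p of 0.0215. A fold change above 1.3 together with an adjusted p under 0.001, the call of the study, was met in none of these fits.

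**Figure D3:**
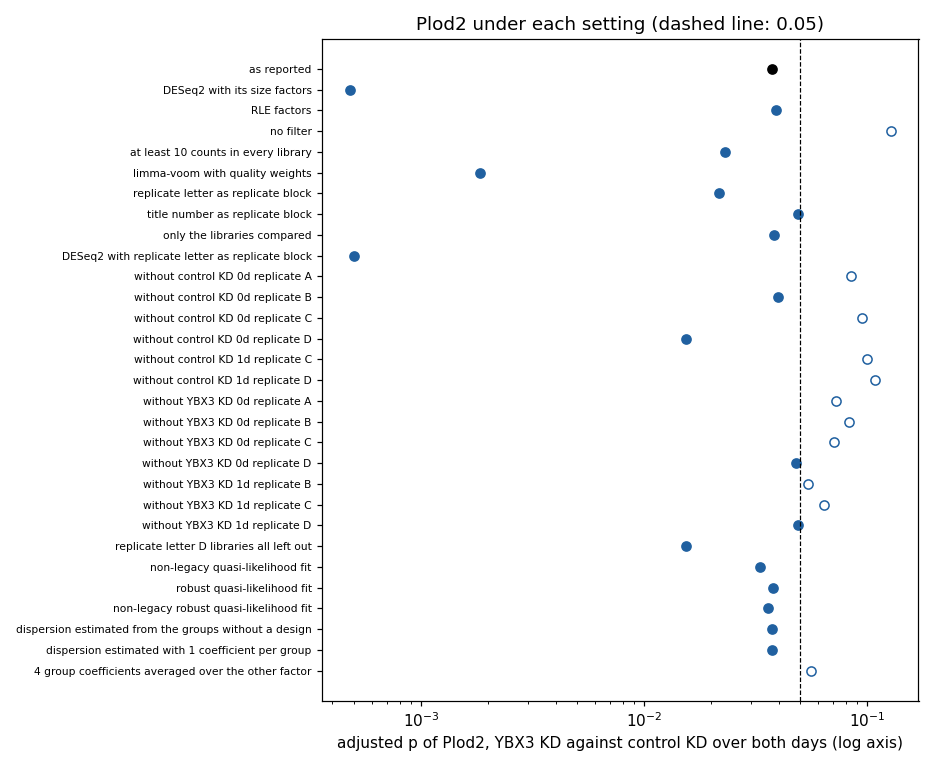
Adjusted p of Plod2 over both days (horizontal, log axis) in the fit as reported (black) and in 29 alternatives (vertical), filled where it was under 0.05, the dashed line. Of the alternatives 18 are filled, among them 4 of the 13 that leave out 1 library.

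Plod1 and Plod3 encode the other lysyl hydroxylases, and the Plod3 product also adds sugars to hydroxylysine. Plod1 (ENSMUSG00000019055, chromosome 4, 147991574 to 148021356, minus strand) ranged from 134 to 147 CPM in control KD and from 123 to 150.3 CPM in YBX3 KD. It was among the steadiest of the enzymes, with a log2 fold change of 0.02 (95% interval -0.10 to 0.14, adjusted p = 0.885). Plod3 (ENSMUSG00000004846, chromosome 5, 137015827 to 137025502, plus strand) ranged from 236 to 302 CPM in control KD and from 208 to 279.5 CPM in YBX3 KD. Its log2 fold change was -0.08 (SE 0.07, adjusted p = 0.674), and 2 of 7 YBX3 KD libraries lay under the control KD range. The 3 lysyl hydroxylase transcripts had different fold changes, and the differences between them were not tested.

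Serpinh1 (ENSMUSG00000070436, chromosome 7, 98994220 to 99005076, minus strand) encodes HSP47, the chaperone that binds the folded collagen helix. At 0 day Serpinh1 was at 1069.5 to 1186 CPM in control KD and at 976 to 1233 CPM in YBX3 KD, and the latter range enclosed the former. At 1 day it was at 1188 and 1228 CPM in control KD and at 1096, 1150.2 and 1095 CPM in YBX3 KD (B, C and D). There the 3 YBX3 KD libraries were below both control KD libraries. At 1 day 19.9% of all tested genes had groups that did not overlap, and of the 10 enzymes Serpinh1, Plod2 and P4ha3 did. The log2 fold change of Serpinh1 over both days was -0.05 (95% interval -0.18 to 0.08, adjusted p = 0.730).

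Lox (ENSMUSG00000024529, chromosome 18, 52649136 to 52663110, minus strand) encodes the founding lysyl oxidase of fibrillar collagen and elastin. At 0 day Lox was at 1089, 1121, 1226 and 937 CPM in control KD replicates A to D and at 1197, 1313, 1417 and 1121 CPM in YBX3 KD replicates A to D. In all 4 letters the YBX3 KD library was the higher, yet the groups overlapped. At 1 day it was at 1138 and 1105 CPM in control KD (C and D) and at 1311, 1164 and 1051 CPM in YBX3 KD (B, C and D). The log2 fold change over both days was 0.15 (95% interval -0.02 to 0.33), which did not pass the test (adjusted p = 0.394).

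Loxl1 (ENSMUSG00000032334, chromosome 9, 58195014 to 58220495, minus strand), a lysyl oxidase best known from elastic fibres, ranged from 9.97 to 15.1 CPM in control KD and from 8.44 to 12.5 CPM in YBX3 KD. Loxl1 did not pass the test (log2 fold change -0.16, SE 0.11, adjusted p = 0.523). Loxl2 (ENSMUSG00000034205, chromosome 14, 69846209 to 69933283, plus strand), a lysyl oxidase with scavenger receptor domains, varied most between replicates. At 0 day it was at 61.5, 65.5, 61.7 and 153 CPM in control KD replicates A to D and at 69.1, 67.3, 73.0 and 115 CPM in YBX3 KD replicates A to D. At 1 day it was at 91.7 and 130.4 CPM in control KD (C and D) and at 92.5, 106 and 132 CPM in YBX3 KD (B, C and D). In all 4 groups replicate D was the highest library. The log2 fold change over both days was -0.05 (95% interval -0.55 to 0.45, adjusted p = 0.938). It was 0.051 with the replicate letter as a block, 0.14 without the replicate D libraries, 0.21 without control KD replicate D at 0 day and 0.014 without control KD replicate D at 1 day. It passed the test in none of 29 alternatives.

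Over both days 0 of the 10 enzymes were called at a fold change above 1.3 and an adjusted p under 0.001, where 0.113% of all tested genes (19) were. At these thresholds DESeq2 and limma-voom also called 0 of the 10. The collagens were not called either. In edgeR, with or without a block for each replicate letter, 0 of 10 tested fibrillar collagens and 0 of all 34 tested collagens were. Past an adjusted p of 0.05 was 1 of 10, Plod2, against 2.34% of all genes (394). With a block for each replicate letter it was still 1, while 1647 of all genes (9.78%) passed, and the median of the enzymes was 0.03. At an unadjusted level of 0.05 without the block it was 2, Plod2 and P4ha3, against 15.6% of all genes. Nothing particular to the enzymes is read from a count of 1 in 10. Libraries of YBX3 KD and control KD did not overlap for 1 of the 10, again Plod2, and for 2.03% of all genes. The fold changes of the enzymes were above 0 in 5 and below 0 in 5, with a median of -0.01 against 0.00 over all tested genes.

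The fibrillar collagens, the main substrates of these enzymes, had other values in the same libraries. Of 11 listed, 10 were tested (Col2a1 was not), and 0 were called at the thresholds of the study. Past an adjusted p of 0.05 in edgeR 3 rose, Col5a2, Col5a1 and Col24a1, while 0 fell. Col3a1 alone had a value below 0, and 0 were lower at an unadjusted 0.05 in edgeR. With the replicate letter as a block 7 of the 10 passed the test over both days and 3 at 0 day, where 9.78% and 2.37% of all genes did. The median log2 fold change of the 10 was 0.41 over both days, and 9 were above 0. At 0 day the median was 0.58, 9 were above 0 and Col5a1 and Col5a2 passed, whereas at 1 day, against 2 control KD libraries, it was 0.24, 8 were above 0 and 0 passed (4 under an unadjusted 0.05). In the test of the difference between days 0 passed, 8 of the 10 were below 0, and 4 of these were under an unadjusted 0.05, as were 2.64% of all genes in either direction. Col5a2, an alpha chain of collagen V, had a log2 fold change of 0.51 (SE 0.07, adjusted p = 0.00321), and the 95% intervals of all 10 enzymes ended below this value. For Col5a1, at 0.42 (adjusted p = 0.00833), the intervals of 8 enzymes ended below the value and those of P4ha3 and Loxl2 contained it. Within the days, Col5a2 was at 0.62 at 0 day, where the intervals of 10 enzymes ended below it, and at 0.32 at 1 day, where those of 4 did and those of 6 contained it. Col5a1 was at 0.55 at 0 day, with the intervals of 9 below it and 1 containing it, and at 0.22 at 1 day, with 3 below it and 7 containing it. Col5a1 and Col5a2 stand here because they passed, so their values are likely at the high end, and the difference between an enzyme and a collagen was not tested.

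Of the other fibrillar collagens 7 did not pass without the block. Col1a1 and Col1a2, the chains of collagen I, had log2 fold changes of 0.34 (adjusted p = 0.295) and 0.29 (adjusted p = 0.335), and Col3a1 had -0.17 (adjusted p = 0.631). Col5a3, Col11a1, Col11a2 and Col27a1 were at 0.40, 0.58, 0.77 and 0.37. With the letter block Col1a1 (adjusted p = 0.0460), Col1a2 (0.0402), Col11a1 (0.0450) and Col11a2 (0.0365) passed, all with values above 0, and at 0 day Col5a3 did (0.0307). Col24a1, with 5 to 36 counts a library, rose by 1.27 on the log2 scale (adjusted p = 0.0200). Over all 34 tested collagens of 44 listed, 8 rose and 0 fell (0 lower at an unadjusted 0.05), with a median of 0.42, and with the letter block 14 passed, all above 0 (8 at 0 day). Their median was 0.62 at 0 day, with 4 past the test, and 0.24 at 1 day, with 0 past it, and 0 passed in the test of the difference between days (7 lower at an unadjusted 0.05). Of those outside the fibrillar list, Col6a4, Col9a3 and Col10a1 had the smallest adjusted p (0.00180, 0.00449 and 0.00882).

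**Figure D4:**
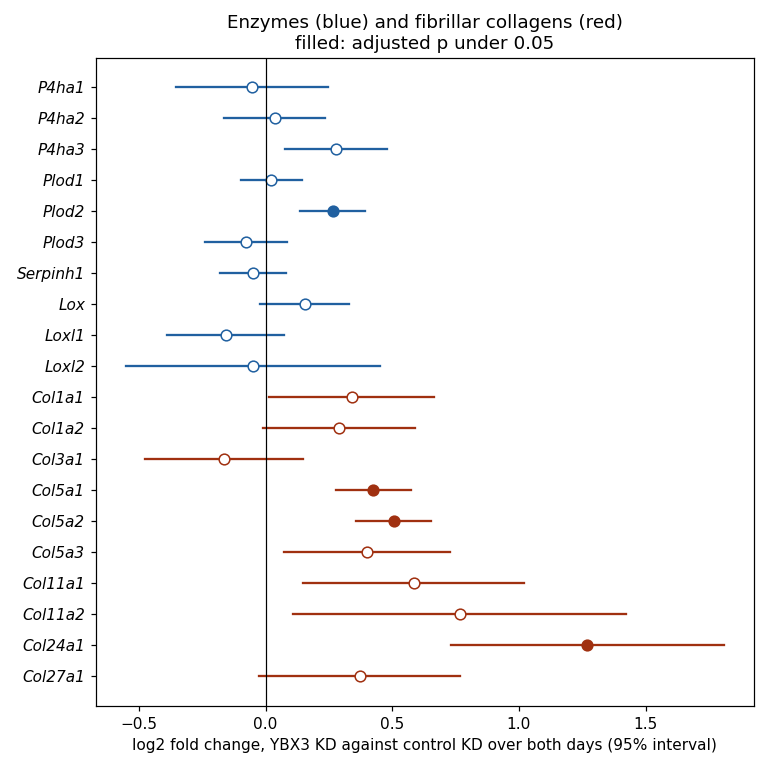
Log2 fold change of YBX3 KD against control KD over both days (horizontal) with its 95% interval, for the 10 enzymes (blue) and the 10 tested fibrillar collagens (red), filled where the adjusted p was under 0.05. Plod2 is the filled enzyme at 0.27, and Col5a1, Col5a2 and Col24a1 are the filled collagens.

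Summed over the 10 genes, the enzymes held 3333 ± 104 CPM in control KD (SD, n = 6), against 3435 ± 85.9 CPM in YBX3 KD (SD, n = 7). The summed fibrillar collagens were at 19442 ± 2589 CPM in control KD (SD, n = 6) and at 23317 ± 3639 CPM in YBX3 KD (SD, n = 7), with overlap. The enzymes amounted to 14.4% to 19.7% of the collagens in the control KD libraries and to 11.8% to 19.2% in the YBX3 KD libraries, which overlapped. These percentages are of CPM, not per kb, so they are compared between libraries only and are not ratios of transcript numbers. Between libraries that share a letter and a day, depletion of YBX3 went with a higher collagen sum in 6 of 6 pairs, a higher enzyme sum in 4 of 6, and a lower share of the enzymes in 6 of 6. The pairs came from 4 letters and left out YBX3 KD replicate B at 1 day, which had no control KD partner. Its share, 19.2%, was the highest of the YBX3 KD libraries, and its collagen sum, 18119.5 CPM, was the lowest. At 0 day the share went from 17.7% to 13.6% (A), from 17.2% to 15.1% (B), from 19.7% to 17.0% (C) and from 14.4% to 11.8% (D), and at 1 day from 19.5% to 14.7% (C) and from 15.7% to 13.9% (D). In each group replicate D had the highest collagen sum and the lowest share of the enzymes. The difference in this share between control KD and YBX3 KD was not tested. These sums are dominated by Lox and Serpinh1 on one side and by Col1a2 on the other.

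Partners of the enzymes were read from lists of the same pathway. Of the 8 prolyl hydroxylation partners, which include the beta subunit P4hb, 0 passed edgeR's test and 2 were under an unadjusted 0.05, with a median log2 fold change of 0.07. With the letter block 9.78% of all genes passed over both days, and the genes named for that block below stand beside this share. P3h2, a prolyl 3-hydroxylase, passed with the block at 0.55 (adjusted p = 0.0213) and P3h4 at -0.21 (adjusted p = 0.0346). Without the block also 0 passed among 12 folding and export genes (1 under an unadjusted 0.05, median 0.04), 5 tested propeptide cleavage genes (0 under it, median 0.12) or 1 tested gene of lysine glycosylation, Colgalt1 (0.07). With it Bmp1, which cleaves the C-propeptide, passed at 0.22 over both days (adjusted p = 0.0337) and at 0.31 at 0 day (adjusted p = 0.0270). At 0 day 2.37% of all genes passed with the block. The 6 other lysyl oxidases and their partners had a median of 0.29, and 0 passed in edgeR's test (1 under an unadjusted 0.05). Loxl3 and Loxl4, the remaining members of the lysyl oxidase family, had log2 fold changes of 0.31 (adjusted p = 0.120) and 0.22 (adjusted p = 0.793). With the letter block Loxl3 passed at 0.28 (adjusted p = 0.0409), as did Fn1, which encodes fibronectin, at 0.38 (adjusted p = 0.0294). Of 12 tested genes of the hypoxia response, which is known to drive several hydroxylases, 0 passed over both days, and 3 were lower and 1 higher at an unadjusted 0.05 (median -0.11). Ldha, a glycolytic enzyme, was the 1 of the 12 that passed with the letter block, at -0.27 (adjusted p = 0.0339). The median of the 12 hypoxia genes was -0.29 at 0 day, with 11 of 12 below 0, and 0.15 at 1 day, with 8 of 12 above 0. At an unadjusted 0.05, 4 of them were lower and 0 higher at 0 day, against 11% of all genes in either direction. At 1 day 0 were lower and 1 higher, against 7.79%. In the test of the difference between days 0 of them passed and 1 was under an unadjusted 0.05, with 12 of 12 above 0. Of 8 genes of the TGF-beta response, which is known to drive matrix genes, Thbs1 rose (0.67, adjusted p = 0.00804), with a median of 0.39 over both days, 0.50 at 0 day and 0.17 at 1 day. With the letter block Tgfbi passed too, at -1.17 (adjusted p = 0.0247). Tgfbi had 1 to 14 counts in the libraries of replicates A to C and 60 to 150 in those of replicate D. The median of the 8 under this block was 0.31 over both days, 0.46 at 0 day and -0.07 at 1 day. In the test of the difference between days 0 of the 8 passed and 0 were under an unadjusted 0.05.

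At 0 day 0 of the 10 enzymes passed an adjusted p of 0.05 in edgeR's test, against 0.427% of all genes, and 1 was under an unadjusted 0.05, Plod2, against 11% of all genes. DESeq2 gave 0, limma-voom gave 1, and DESeq2 with the letter block gave 1, where 3.13%, 10.6% and 9.36% of genes with an adjusted p passed. With the letter block edgeR gave 0, against 2.37%. P4ha3 and Plod2 had groups that did not overlap at 0 day, as did 9.1% of all genes. The log2 fold change of Plod2 was 0.23 (SE 0.08, adjusted p = 0.262) at 0 day and 0.33 (SE 0.10, adjusted p = 0.485) at 1 day. At 1 day 0 of the 10 passed, against 0.0712% of all genes, and 1, Plod2, was under an unadjusted 0.05, against 7.79%. DESeq2 and limma-voom gave 0, and DESeq2 with the letter block gave 1, where 17.3% of genes with an adjusted p passed. The comparison at 1 day rests on 2 control KD libraries. The difference of the effect between the days was tested directly, and 0 of the 10 passed, as did 0% of all genes, with 0 enzymes under an unadjusted 0.05 and 0 with DESeq2 or limma-voom. For Plod2 this difference was 0.10 (95% interval -0.17 to 0.37) and for P4ha1 it was 0.36 (95% interval -0.24 to 0.97).

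From 0 day to 1 day, over both siRNAs, 0 of the 10 enzymes passed (0% of all genes) and 0 were under an unadjusted 0.05 in edgeR's test, and DESeq2 and limma-voom gave 0. The values of the enzymes ran from -0.13 in Plod3 to 0.41 in Loxl2 on the log2 scale. Loxl2 had an interval of -0.10 to 0.92. Without the replicate D libraries Loxl2 passed, at 0.52 (adjusted p = 0.00254), as did 0.932% of all genes, and its replicates A to C then lay at 61.5 to 73.0 CPM at 0 day and at 91.7 to 106 CPM at 1 day. Within control KD (0% of all genes) and within YBX3 KD (0% of all genes) 0 of the 10 passed either, with 0 under an unadjusted 0.05, and DESeq2 and limma-voom gave 0. P4ha1 had a day step of 0.01 (SE 0.21) in control KD and 0.38 (SE 0.18) in YBX3 KD.

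Replicate D was on the same side of the mean of the other libraries in 4 of 4 groups for 7 of the 10 enzymes, and for 58% of all tested genes. Loxl2, P4ha1, P4ha2 and Plod1 were the higher ones, and P4ha3, Plod3 and Lox the lower. The sizes differed, from 0.41 to 1.28 on the log2 scale in Loxl2 to 0.056 to 0.11 in Plod1, and P4ha3 was at -0.0086 in YBX3 KD at 0 day. The 7 proliferation genes were summed in the same libraries. At 0 day their sum was 2110.3, 1955, 2027 and 883 CPM in control KD replicates A to D and 1522, 1542, 1696 and 1008 CPM in YBX3 KD replicates A to D. At 1 day it was 2164 and 1665 CPM in control KD (C and D) and 1607, 1657 and 367 CPM in YBX3 KD (B, C and D). Replicate D had the lowest sum in each group. The 6 fibroblast markers had their highest sum in replicate D in each group. At 0 day this sum was 75.4 CPM in replicate D of control KD, against 42.5 to 54.7 in A to C, and 60.6 CPM in replicate D of YBX3 KD, against 30.001 to 47.3 in A to C. At 1 day it was 64.5 CPM in D and 48.7 in C of control KD, and 81.2 CPM in D of YBX3 KD, against 34.9 in B and 62.2 in C. The part of these differences between replicates in the values of the enzymes was not tested, and values without replicate D are given where they changed a result.

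Several defining markers of other cell types were at or near 0, but 2 of 6 fibroblast markers were not. Ptprc and Adgre1 (macrophages), Pecam1 and Kdr (endothelium), and Adipoq and Lep (adipocytes) had at most 5 counts in any library, with Adgre1 and Lep at 0 in all 13. The macrophage list summed to 1.84 to 3.92 CPM, led by Cd68, and 0 of its 2 tested genes passed edgeR's test. The endothelial list summed to 0.776 to 1.74 CPM, and the adipocyte list, led by Fabp4 with none tested, to at most 0.176 CPM. Tek, an endothelial receptor at 2 to 22 counts, rose (1.74, adjusted p = 0.0375), and Cdh5, the most abundant of that list, did not pass. The fibroblast list summed to at most 81.2 CPM, led by Pdgfra at 28.6 to 73.0 CPM (mean 48.8). Dcn was at 59 to 349 counts (1.32 to 9.37 CPM), and neither passed. Of the others Tcf21 was at 0 in all libraries, and Thy1, Lum and Dpt had at most 1, 2 and 8 counts. Myoblast markers summed to 779 to 1130.03 CPM, led by Itga7. Chrna1, a subunit of the muscle acetylcholine receptor, was the 1 of 6 tested that rose (0.37, adjusted p = 0.0449). With the letter block, where 9.78% of all genes passed, Myod1, a myogenic transcription factor, passed as well, at 1.06 (adjusted p = 0.0155). Of 8 tested genes of muscle differentiation, Cdkn1a rose (1.01, adjusted p = 0.0199), and all 8 had values above 0 over both days (median 0.68). At 0 day 5 of the 8 were above 0 (median 0.17), and at 1 day, against 2 control KD libraries, all 8 were (median 1.49). Several of the 1 day values rest on YBX3 KD replicate C. There Myog, Ckm and Acta1 had 129, 94 and 1273 counts, against 10, 5 and 175 in B and 21, 31 and 84 in D. In control KD they had 22, 13 and 242 in C and 2, 2 and 21 in D. Cdkn1a, at 17607, 9720 and 14239 counts in B, C and D, was not highest in C. Cdkn1a also passed at 0 day with the letter block, at 0.93 (adjusted p = 0.0456), where 2.37% of all genes passed. In the test of the difference between days 0 of the 8 muscle differentiation genes passed and 0 were under an unadjusted 0.05. Of 7 proliferation genes 0 passed edgeR's test and 0 were under an unadjusted 0.05 (median -0.40, with -0.28 at 0 day and -0.66 at 1 day). The letter block gave 0 past the test too, with medians of -0.51 over both days, -0.22 at 0 day and -1.12 at 1 day. The part of these lists in the values of the enzymes was not tested.

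The siRNAs listed for the study were compared with the 3' untranslated regions of the enzymes, because a short match to bases 2 to 8 of an antisense strand can lower an mRNA that is not the target. The sources do not say which of the listed siRNAs were used for the RNAseq. The antisense strands of the YBX3 siRNAs are shown with bases 2 to 8 in capitals.
YBX3 05: uAUAGUUGuagggacgucg
YBX3 06: aUAGUAGCcgcgucuguac
YBX3 08: aUACUUGCguggguuguuu
The listed antisense strand of siRNA 07 is not the complement of its listed sense strand and is not shown. Any of the 4 YBX3 seeds was matched in 2 of the 10 enzymes, Plod1 (siRNA 08) and Loxl1 (siRNA 07), and in 20.4% of 12930 tested genes with an annotated region. The match in Loxl1 and part of the 20.4% rest on the listed antisense strand of siRNA 07, which is uncertain. Its listed sense strand was found in 0 of 24 annotated Ybx3 transcripts. Seeds of the 4 nontargeting siRNAs were matched in 6 of the 10 and in 54.6% of those genes. Plod2 held no match to a YBX3 seed, and it held matches to nontargeting siRNAs 2 and 4, which 24.9% and 31.8% of genes hold. The sites are shown on the strand of the gene, with the match in capitals.
Plod1, siRNA YBX3 08, chr4:147993923-147993947: agggacatgGCAAGTAagtgatagg
Plod2, siRNA nontargeting 2, chr9:92489424-92489448: tatataaaaTTGTGTGatgtctctt
Plod2, siRNA nontargeting 4, chr9:92490263-92490287: cttaattacTTTTCCTctaccctac
These positions are in the 3' untranslated regions of the canonical transcripts, on GRCm39 with GENCODE vM39. A match is a description and shows no effect on the mRNA.

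Promoters of 250 bases before to 50 after the start were read from RefSeq (GRCm38.p6) for 6 of the 10 genes, P4ha1, P4ha2, P4ha3, Plod1, Plod3 and Serpinh1. Plod2, Lox, Loxl1 and Loxl2 had no entry. ACGTG and GCGTG, the core of the hypoxia response element in both of its common forms, which share their last 4 letters, and ATTGG, the core of the CCAAT box on the other strand, were searched on both strands. ACGTG was found in P4ha1, P4ha2, Plod3 and Serpinh1, and in 19.6% of 32851 promoters. GCGTG was found in P4ha1, P4ha2, Plod1 and Plod3, and in 32.4% of promoters. ATTGG was found in Plod3 alone of the 6, and in 37.4% of promoters. P4ha2 held 2 copies of ACGTG, more than the others, and these are shown as an example with the match in capitals, on the strand of the gene.
P4ha2, first copy, chr11:54100836-54100860: tgcatcgcatACGTGcagcgcgtgg
P4ha2, second copy, chr11:54100924-54100948: ggaggtggggACGTGgcggaggctc
A match is again a description, not a site in use.

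Some of the genes overlap others in the annotation, and whether counting used the strand was not stated, although the library kit keeps it. Loxl2 overlaps R3hcc1 by 943 bases on the opposite strand, and R3hcc1, looked up for this overlap, fell from 28.2 to 22.4 CPM (adjusted p = 0.0108). Plod2 overlaps B430319G15Rik on the opposite strand, which had a mean of 3.03 CPM without and 3.07 CPM with YBX3 depletion, far below Plod2. Lox overlaps Gm41724 (8.06 and 12.2 CPM), and Plod3 overlaps Znhit1 (42.4 and 41.8 CPM). Reads from the overlapped bases of these pairs cannot be told apart without strand.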

How the data were processed

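The mRNA of 13 libraries was sequenced. By the authors' account, Salmon with GRCm39 and a canonical list of GENCODE gave the estimated counts per gene that were deposited, as whole numbers and not normalized. How estimates were summed by gene was not given in the sources used here. R 4.3.3 was used with edgeR 4.0.16 (filterByExpr on the 4 groups, TMM, estimateDisp, glmQLFit at its installed default, glmQLFTest), limma 3.58.1 (voom with quality weights) and DESeq2 1.42.0, and p-values were adjusted (Benjamini-Hochberg) over the 16848 genes tested. The comparison over both days had the day as a term, and the others 1 coefficient per group. Fits were tested on simulated data, where all 3 tools recovered the sizes of change, edgeR and voom missed most of the smaller changes, and DESeq2 made more false calls than the others. The simulated counts were drawn with edgeR's own dispersions and without any effect of the replicate letter. They therefore do not rank the tools on these data. Genes named were the 10 enzymes, Ybx3, tested fibrillar collagens, genes of the other lists past the test (up to 3 of a list by p where over 6 were) and the most abundant markers. P4hb, Colgalt1, Loxl3, Loxl4, overlapping genes, Dcn, markers near 0 and list genes past the test only with the letter block were named after their values were seen. So were Myog, Ckm and Acta1. Members and lists were chosen with earlier results of these data known. In all 16 pairs of libraries sharing a replicate letter the residuals correlated above 0.1 (lowest 0.117, median 0.338), so the letters pair the samples. Of 46 pairs with different letters 11 were above 0.1 as well (median -0.146, highest 0.419). The fit as reported has no term for this pairing, and results with the letter as a block are given as an alternative. The labels call the replicates biological, but nothing says whether they were separate cultures, so p-values measure the spread between these libraries. No pair within a group agreed within counting noise (chi-square over degrees of freedom from 18.0 to 259).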

Additional observations from a re-analysis of the deposited data

Results flagged for a closer look

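Of 20 sets of 4 libraries examined (10 genes in 2 groups), 3 had a library far from the others of its group, where chance gives about 1 in 20. Plod2 was at 202 CPM in YBX3 KD replicate B at 0 day, against 188 to 189.8 CPM in the other 3. Loxl2 was at 153 CPM in control KD replicate D at 0 day, against 61.5 to 65.5 CPM in the other 3. Loxl2 was also at 115 CPM in YBX3 KD replicate D at 0 day, against 67.3 to 73.0 CPM. Both Loxl2 libraries carry the same replicate letter.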

How the results depend on the processing

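At 1 day the comparison rests on 2 control KD libraries, and at both days replicate D differs from the others in Loxl2.

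Over both days 0 enzymes were called in each of 29 alternatives. The count past an adjusted p of 0.05, 1 as reported, was 0 with no filter and 0 with the averaged group coefficients (added after seeing the data), 2 with limma-voom and 2 with DESeq2 and the replicate letter as a block, and 0 to 1 with 1 library left out. At 0 day it was 1 with limma-voom and 1 with DESeq2 and that block (1782 and 1332 of all genes). At 1 day it was 1 with the latter (2347). For the day step without the replicate D libraries it was 1 over both siRNAs (161 of all genes) and 1 within YBX3 KD (40). The replicate letter block in edgeR moved the counts of fibrillar collagens and of all genes given below, and that of all genes at 0 day (72 to 399). It turned the sign of Loxl2, of the median of the enzymes and of the TGF-beta response median at 1 day (0.17 to -0.07). The 1 day medians of proliferation (-0.66 to -1.12) and all collagens (0.24 to 0.36) moved too. The 0 day median of muscle differentiation went from 0.17 to 0.26. The block also brought genes of 6 other lists and 6 collagens past the test over both days, each named or counted in the report. Among the enzymes, the listed genes and the overlapping genes it ended no call. The cause of these differences was not tested.

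All genes called over both days, 19 as reported, numbered 188 with DESeq2, 185 with limma-voom and 9 with the title number as a block. They numbered 424 with DESeq2 and the letter block, and 102 without replicate D. With averaged coefficients they numbered 11, and with 1 library left out 10 to 21. Genes past an adjusted p of 0.05, 394 as reported, numbered 1179 with DESeq2, 180 with no filter, 3088 with limma-voom, 1647 with the letter block, 2951 with DESeq2 and that block, 2155 without replicate D, 223 with averaged coefficients and 172 to 857 with 1 library left out, the 857 without control KD replicate D at 0 day. Leaving out any other 0 day library except YBX3 KD replicate D, or either 1 day control KD library, gave 172 to 219. Fibrillar collagens past it, 3 as reported, numbered 9 with limma-voom, 7 with the letter block, 9 with DESeq2 and that block, 7 without replicate D and 2 to 4 with 1 library left out. Another 5 settings chosen after seeing the data, the non-legacy fit, the robust fit, both together and 2 other estimates of the dispersion, left Plod2 past the test (adjusted p = 0.0331, 0.0375, 0.0357, 0.0374 and 0.0374).

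Signs turned only in enzymes that did not pass there. P4ha1 was at 0.058 with limma-voom, 0.018 without replicate D, and -0.13 to 0.073 with 1 library left out. Loxl2 was at 0.14 with limma-voom, 0.051 with the letter block, 0.045 with DESeq2 and that block, 0.14 without replicate D, and -0.17 to 0.21 with 1 library left out. P4ha2 ran from -0.015 to 0.095 with 1 library left out. In the day step, with 1 library left out, P4ha2 ran from -0.027 to 0.098, Serpinh1 from -0.00013 to 0.052 and Lox from -0.076 to 0.0039.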
